A study of Mus musculus with 6 samples.

Results

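Glycolysis, the pentose phosphate branch and the entry of pyruvate into mitochondria were followed through 37 genes named by symbol, of 34724 genes in the deposited table. All 37 symbols were found. Aldoa stood on a second identifier as well, which had no read in any library, and the identifier with reads was used. RNA molecules themselves, and no cDNA copies of them, were sequenced through nanopores, in 3 libraries of each of 2 mouse lines. Per the labels, both 2H-11 and SVEC4-10 are SV40-transformed lines from the axillary lymph node of adult C3H/HeJ mice; 2H-11 is called a tumor endothelial and SVEC4-10 a normal endothelial line, and no treatment is given. Each of these names rests on 1 line, so what goes with the name tumor or normal and what goes with the line cannot be told apart. Separate cultures are not stated for the 3 libraries of a line. The p-values therefore measure only how these libraries vary, which may be technical.

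Library totals ran from 3628400 to 16798666 counted reads, and SVEC4-10 replicate 3 alone held 68.0% of the reads of its line. Levels are given in CPM, the reads of a gene per 1000000 counted reads of its library, and values after ± are the SD of 3 libraries (n = 3 for each line). Most defining markers of endothelium were at or near 0, and the 3 with enough reads to be tested were all higher in 2H-11. In each of the 6 libraries 11 of 14 such markers stayed below 1 CPM, 6 of them without a read. Pecam1 had 1 read in 2H-11 and none in SVEC4-10. The summed level of the list was 58.0 to 69.8 CPM in 2H-11 but 3.04 to 4.41 CPM in SVEC4-10. Most of the sum in 2H-11 was that of Ecscr, at 54.9, 45.3 and 42.9 CPM against 0, 0.276 and 0 CPM. The other 2 tested were Eng, at 9.61 ± 2.6 against 2.455 ± 0.507 CPM, and Egfl7, at 5.40 ± 1.35 against 0.787 ± 0.0745 CPM. The 8 mesothelial genes summed to 58.5 to 72.7 CPM in 2H-11 but 3166 to 4072 CPM in SVEC4-10. Of 6 tested, 5 were lower in 2H-11 and 1 was higher, Krt19, at 22.0 ± 7.08 CPM against 0.196 ± 0.243 CPM (adjusted p = 4.93e-09). The 12 fibroblast and mural genes summed to 2169 to 2821 and 2475 to 2779 CPM, with Lum and Rgs5 at 0 reads throughout. These like sums cover unlike genes, since of 10 tested 6 were higher in 2H-11 and 1 lower. Pdgfrb had 171, 118 and 128 reads in 2H-11 and none in SVEC4-10, and Dcn was the lower one, at 13.8 ± 2.59 CPM against 307 ± 52.4 CPM; these and Krt19 were picked after their values were seen. The 7 leukocyte genes summed to 4.09 to 5.66 and 3.39 to 8.54 CPM. As a yardstick for these marker counts, the calls defined below covered 20.1% of all 13187 genes tested as higher and 16.2% as lower. The part of these marker differences in the results that follow was not tested.

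Glycolysis splits glucose into pyruvate in the cytosol, lactate dehydrogenase turns pyruvate into lactate to recover NAD+, and monocarboxylate transporters carry lactate with a proton across the cell membrane. The pentose phosphate branch leaves at glucose 6-phosphate; its oxidative arm makes NADPH and its non-oxidative arm trades sugar phosphates between ribose and glycolysis. Pyruvate that is not made into lactate enters mitochondria through the pyruvate carrier and is oxidised by the pyruvate dehydrogenase complex, which its kinases switch off.

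The late glycolytic enzymes Eno1 and Pkm, Ldha and the lactate exporter Slc16a3 were read more in 2H-11, and Pdhb and Mpc1 of pyruvate entry less. Of 35 members with enough reads to be tested, 13 were higher and 6 lower in 2H-11, and 16 did not pass the threshold (edgeR quasi-likelihood test over all 13187 genes tested, Benjamini-Hochberg adjusted p under 0.05). Among all genes tested, 36.2% were called, 20.1% as higher and 16.2% as lower. The median log2 fold change of the members was 0.10, against 0.00 over all genes tested. For 22 of the 35 the 2 lines did not overlap, and the same was true of 46.8% of all genes tested. Against a 1.5-fold change, 7 members were higher and 3 lower, where 13.1% and 8.15% of all genes were. Without SVEC4-10 replicate 3, 8 members were higher and 6 lower, against 17.1% and 14.1% of all genes. Slc2a3 and Pdk1 had too few reads for the test. Differences below are 2H-11 over SVEC4-10. In bulk RNA, fewer cells of a kind and less RNA per cell cannot be told apart.

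**Figure D1:**
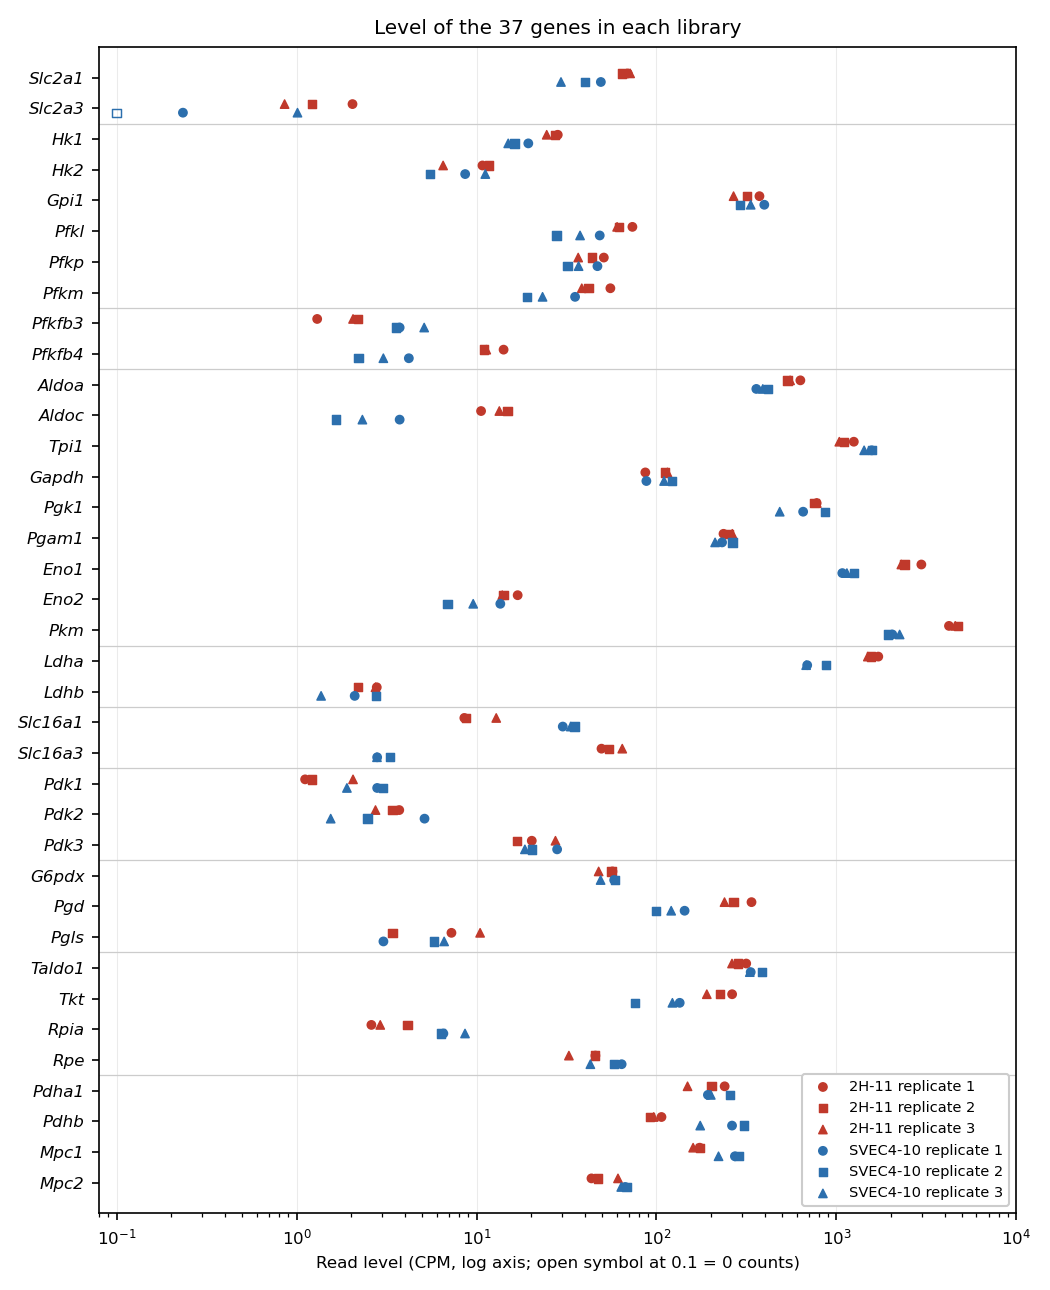
Level of each of the 37 genes in CPM on a log axis, with red symbols for the 3 libraries of 2H-11 and blue symbols for the 3 of SVEC4-10; the open symbol marks a library with 0 reads. Slc16a3 and Slc16a1 separate the lines in opposite directions, at 49.5 to 64.5 against 2.80 to 3.31 CPM and at 8.56 to 12.9 against 30.2 to 35 CPM.

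The lactate transporters went opposite ways in the lines. Slc16a3 encodes MCT4, a low-affinity transporter known for lactate export from glycolytic cells (ENSMUSG00000025161, chromosome 11, 120948480 to 120960868 in GRCm38). Its level was 49.5, 54.3 and 64.5 CPM in 2H-11 replicates 1 to 3 but 2.80, 3.31 and 2.80 CPM in SVEC4-10, from 865 and 71 reads. The lines lay far apart, and Slc16a3 had both the largest fold change and the smallest p of the 35 members tested, 17.99-fold higher in 2H-11 (log2 fold change 4.17 with SE 0.26, adjusted p = 5.17e-10). Slc16a1 encodes MCT1, a transporter of higher affinity that works in both directions (ENSMUSG00000032902, chromosome 3, 104638668 to 104658462). It went the other way, with 8.56, 8.77 and 12.9 CPM in 2H-11 but 30.2, 35 and 33.4 CPM in SVEC4-10. That is 3.45-fold lower in 2H-11 (log2 fold change -1.79 with SE 0.24, adjusted p = 1.18e-05), again with no overlap.

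Set against each other, Slc16a3 took 84.9% ± 1.40 of the reads of the pair in 2H-11 and 8.29% ± 0.490 in SVEC4-10. The exact two-sided permutation test gave p = 0.1, the smallest that 3 against 3 libraries allow, as for every share and sum below that separates the lines. Each direct RNA read stands for 1 molecule, so these are shares of molecules read; per kilobase of the longest coding transcript the shares were 85.2% and 8.45%. The pair together stood at 66.2 ± 10.1 CPM in 2H-11 and at 35.8 ± 2.70 CPM in SVEC4-10. Bsg encodes basigin, the chaperone that takes both transporters to the cell surface. It was named here after its value was seen, and was 1.97-fold lower in 2H-11, at 279, 218 and 312 CPM against 589, 514 and 395 CPM, with an adjusted p of 0.000392.

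The promoters of this pair are shown because the pair carries the sharpest exchange, with those of Pfkfb4, which was higher in 2H-11, and Pdhb, which was lower. Each is 300 bases of RefSeq sequence on GRCm38.p6, from 250 before to 50 after the annotated start and on the strand of the gene. Such a listed start need not be the first base of the gene span, and the Slc16a3 window lies inside the span given above. Capitals mark ACGTG or GCGTG on either strand, the core to which hypoxia-inducible factors bind; the C3H strain of the cells may differ from this reference.
Slc16a3, chr11:120948817-120949116, plus strand: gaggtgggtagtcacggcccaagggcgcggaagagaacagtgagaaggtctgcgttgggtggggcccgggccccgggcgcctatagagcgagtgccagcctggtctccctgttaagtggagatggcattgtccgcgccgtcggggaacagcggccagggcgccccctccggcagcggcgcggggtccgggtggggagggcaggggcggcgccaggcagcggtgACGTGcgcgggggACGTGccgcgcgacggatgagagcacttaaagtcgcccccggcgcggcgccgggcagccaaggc
Slc16a1, chr3:104638414-104638713, plus strand: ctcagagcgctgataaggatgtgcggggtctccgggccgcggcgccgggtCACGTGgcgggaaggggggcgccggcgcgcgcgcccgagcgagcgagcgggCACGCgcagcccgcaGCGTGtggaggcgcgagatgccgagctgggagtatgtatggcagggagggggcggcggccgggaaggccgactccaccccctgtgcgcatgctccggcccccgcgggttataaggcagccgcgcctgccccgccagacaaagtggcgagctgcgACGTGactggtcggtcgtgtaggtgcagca
Pfkfb4, chr9:108991652-108991951, plus strand: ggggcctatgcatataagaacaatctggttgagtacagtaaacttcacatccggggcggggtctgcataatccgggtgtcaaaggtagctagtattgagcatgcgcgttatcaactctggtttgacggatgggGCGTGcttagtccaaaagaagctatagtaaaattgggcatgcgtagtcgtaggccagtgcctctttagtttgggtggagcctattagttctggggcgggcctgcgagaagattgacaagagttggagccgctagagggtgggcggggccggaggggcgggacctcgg
Pdhb, chr14:8172943-8173242, minus strand: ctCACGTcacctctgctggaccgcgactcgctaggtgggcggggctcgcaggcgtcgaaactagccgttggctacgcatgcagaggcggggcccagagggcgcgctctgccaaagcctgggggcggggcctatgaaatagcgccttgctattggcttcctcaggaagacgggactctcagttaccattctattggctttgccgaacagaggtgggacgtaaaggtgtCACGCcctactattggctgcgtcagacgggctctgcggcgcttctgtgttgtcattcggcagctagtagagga
Slc16a3 held ACGTG 27 and 14 bases before its listed start. Slc16a1 had 5 matches, of which 2 are 1 CACGTG read on each strand. Pfkfb4 had GCGTG 117 bases before its listed start, and Pdhb had 2 matches. A match is a run of letters and not a measured site, and both directions of change were found with it. Promoters were listed for 36 of the members. The core was present in 13 of 13 members that were higher, 5 of 6 that were lower and 13 of 16 that did not pass, and in 70.0% of the 8095 genes tested that have a listed promoter (46.7% of all 27025 listed genes). Genes with several listed starts were counted when any window held it. By window it was in 76.9% of the 52 member windows and 63.9% of the windows of tested genes. The median GC content of these windows was 61.0% and 61.3%.

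Lactate dehydrogenase was read almost wholly as Ldha in both lines, and Ldha was higher in 2H-11. Ldha encodes the muscle-type subunit (ENSMUSG00000063229, chromosome 7, 46841475 to 46855627). It stood at 1708, 1557 and 1494 CPM in 2H-11 and at 688, 876 and 679 CPM in SVEC4-10. It was 1.98-fold higher with no overlap (log2 fold change 0.98 with SE 0.16, adjusted p = 0.000104). Ldhb, the heart-type subunit, had 40 and 42 reads in all, at 2.79, 2.19 and 2.75 CPM against 2.10, 2.76 and 1.37 CPM. The lines overlapped and the gene did not pass (log2 fold change 0.36, 95% interval -0.51 to 1.23, adjusted p = 0.541). Ldhb made up 0.162% ± 0.0214 of the reads of the pair in 2H-11 and 0.273% ± 0.0625 in SVEC4-10.

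Of the glucose transporters, Slc2a1 (GLUT1, the common basal transporter) was higher in 2H-11, at 69.2, 64.1 and 71.4 CPM against 49.1, 40.0 and 29.5 CPM. The libraries did not overlap, and the difference was 1.64-fold (log2 fold change 0.71 with SE 0.21, adjusted p = 0.0111); without SVEC4-10 replicate 3 the adjusted p was 0.103. Slc2a3 (GLUT3, of high affinity) was barely read, with 21 and 18 reads in all. In CPM it was at 2.05, 1.22 and 0.858 in 2H-11 and at 0.234, 0 and 1.01 in SVEC4-10, where 17 of the 18 reads came from replicate 3. Of the sum of the pair Slc2a3 took 1.98% ± 0.848 and 1.27% ± 1.80, with overlap between the lines (p = 0.6, exact permutation test).

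Both hexokinases, which trap glucose as glucose 6-phosphate, were read in both lines. Hk1, the widely expressed form, was at 28.3, 27.3 and 24.6 CPM in 2H-11 and at 19.4, 16.3 and 15 CPM in SVEC4-10, 1.49-fold higher without overlap (log2 fold change 0.58 with SE 0.21, adjusted p = 0.0422). This call was near the threshold: DESeq2 gave an adjusted p of 0.0507, and edgeR without the filter on low counts gave 0.131. Leaving out 1 library ended it for 2H-11 replicate 1 (0.108) or 2 (0.151) and for each SVEC4-10 library (0.071, 0.0962 and 0.193 without replicates 1 to 3). Hk2, the inducible form of muscle and of many tumours, was at 10.8, 11.7 and 6.52 CPM against 8.65, 5.51 and 11.2 CPM, and overlapped (log2 fold change 0.03, 95% interval -0.61 to 0.68, adjusted p = 0.95). The Hk2 share of the hexokinase reads was 26.2% ± 4.67 in 2H-11 and 33.0% ± 8.90 in SVEC4-10 (p = 0.4, exact permutation test). Gpi1, the isomerase that follows, stood at 320 ± 52.6 CPM against 341 ± 53.2 CPM and did not pass (log2 fold change -0.18, adjusted p = 0.426).

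Phosphofructokinase-1, the committed step of glycolysis, was made from all 3 genes in both lines, with a smaller share of the platelet form in 2H-11. Pfkl, the liver form, was at 73.5, 61.9 and 60.4 CPM in 2H-11 and at 48.4, 27.8 and 37.6 CPM in SVEC4-10. That is 1.62-fold higher (log2 fold change 0.69 with SE 0.20, adjusted p = 0.0123). Pfkm, the muscle form, was at 55.4, 41.9 and 38.5 CPM against 35.3, 19.0 and 23.3 CPM, or 1.65-fold higher (log2 fold change 0.73 with SE 0.23, adjusted p = 0.0184). Both calls were lost without 2H-11 replicate 1 (adjusted p = 0.0518 for Pfkl and 0.095 for Pfkm), SVEC4-10 replicate 2 (0.0888 and 0.108) or SVEC4-10 replicate 3 (0.0526 and 0.098). Pfkp, the platelet form, was at 51.0, 43.9 and 36.7 CPM against 47.0, 32.0 and 36.9 CPM and did not pass (log2 fold change 0.09, 95% interval -0.33 to 0.52, adjusted p = 0.76). Pfkp shares 748 exon bases with Pitrm1 on the other strand, and the use of strand in the counting is not given.

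As shares of the reads of the 3 genes, Pfkl took 42.4% ± 1.91 in 2H-11 and 36.9% ± 1.58 in SVEC4-10. Pfkp took 28.4% ± 1.31 and 38.1% ± 2.32, and Pfkm 29.2% ± 1.41 and 24.98% ± 1.77. None of the 3 shares overlapped between the lines. Summed, the 3 genes stood at 154 ± 22.9 and 102 ± 26.2 CPM.

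The bifunctional enzymes that set the level of fructose 2,6-bisphosphate, the activator of phosphofructokinase-1, are made from a family of genes, of which Pfkfb4 was higher and Pfkfb3 lower in 2H-11. Pfkfb4 (ENSMUSG00000025648, chromosome 9, 108991778 to 109032228) was at 14.1, 10.96 and 11.3 CPM in 2H-11 and at 4.21, 2.21 and 3.04 CPM in SVEC4-10. It was 3.62-fold higher (log2 fold change 1.85 with SE 0.31, adjusted p = 1e-04). Pfkfb3, the form known from endothelial sprouting, was at 1.30, 2.19 and 2.06 CPM against 3.74, 3.58 and 5.12 CPM, from 28 and 115 reads. It was 2.47-fold lower (log2 fold change -1.31 with SE 0.39, adjusted p = 0.0135), and without SVEC4-10 replicate 3, which held 86 of the 115 reads, the adjusted p was 0.0968. With every library thinned to the smallest it was 0.056. The lines did not overlap for either gene, and Pfkfb4 took 86.5% ± 4.43 of the reads of the pair in 2H-11 and 42.8% ± 8.83 in SVEC4-10. Pfkfb1, which is no member of the set, stood at 3.73 ± 1.17 CPM against 3.22 ± 0.7997 CPM and did not pass (log2 fold change 0.18 with SE 0.38, adjusted p = 0.748), and Pfkfb2, at 1.39 and 1.40 CPM, was not tested. Over all 4 genes, a sum chosen after seeing the data, the share of Pfkfb4 was 63.6% ± 2.61 and 26.0% ± 4.19, without overlap.

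**Figure D2:**
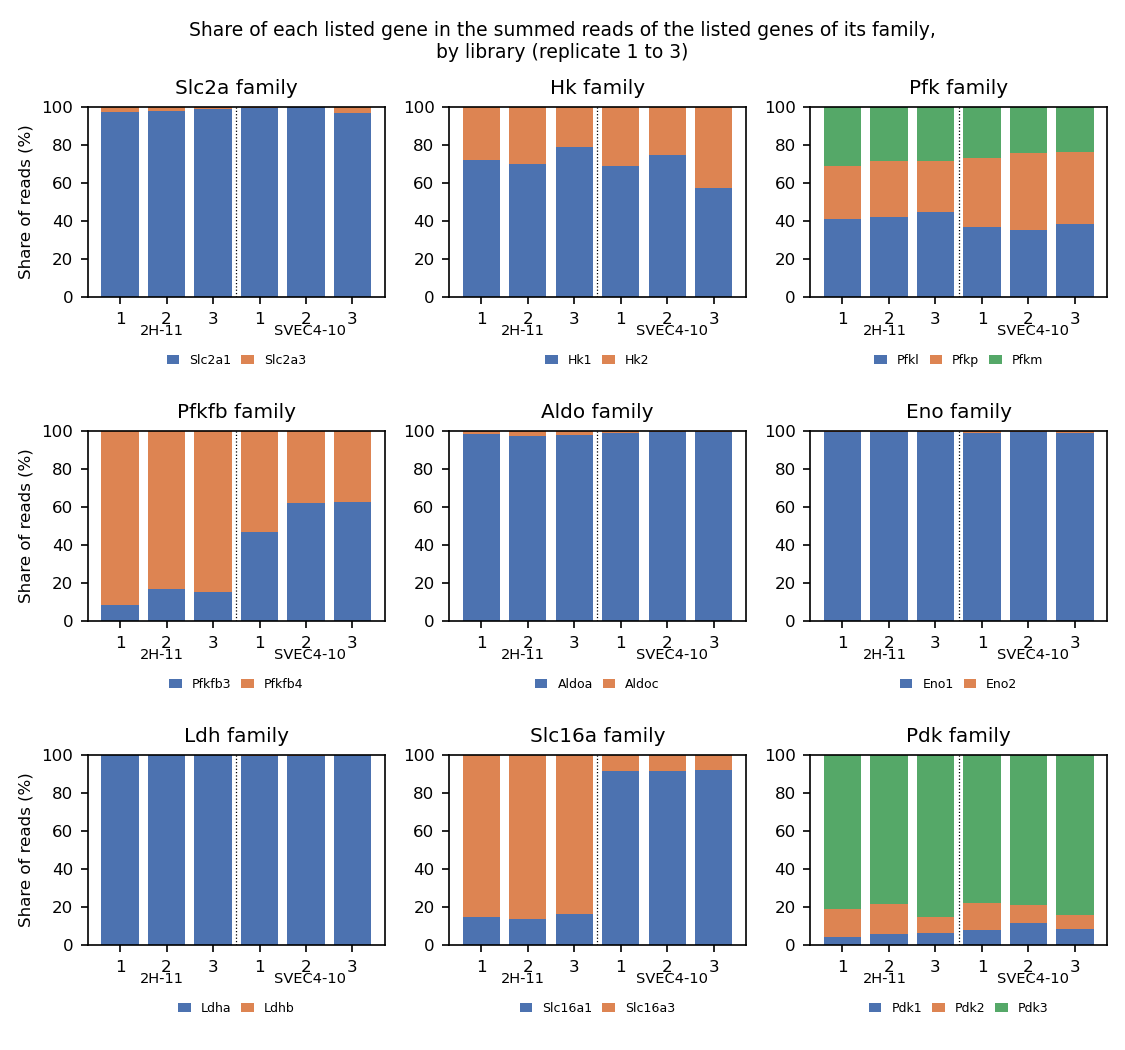
Share of each listed gene in the summed reads of the listed genes of its family, with paralogs outside the set left out, one stacked bar per library, with the 3 libraries of 2H-11 left and the 3 of SVEC4-10 right of the dotted line. The Slc16a bars turn over between the lines (Slc16a3 84.9% against 8.29%), the Pfkfb bars shift (Pfkfb4 86.5% against 42.8%), and Ldha, Eno1, Aldoa and Slc2a1 fill nearly all of their bars in both lines. With the paralogs added, Eno1 held 69.5% and 75.3% of the enolase reads and Slc2a1 80.5% and 92.6% of the Slc2a reads. Most of the other enolase reads lay on Eno1b, a near-identical copy of Eno1, and are uncertain as to origin.

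In the second stage of glycolysis, 4 of 9 members were higher in 2H-11, 1 was lower and 4 did not pass. Among all genes tested, 20.1% were higher and 16.2% lower. Aldolase splits fructose 1,6-bisphosphate. Aldoc, the brain form (ENSMUSG00000017390, chromosome 11, 78322968 to 78327781), was at 10.6, 14.9 and 13.4 CPM in 2H-11 and at 3.74, 1.65 and 2.32 CPM in SVEC4-10, 4.77-fold higher (log2 fold change 2.25 with SE 0.33, adjusted p = 2.38e-05). Aldoa, the ubiquitous form, was at 630, 534 and 553 CPM against 359, 416 and 390 CPM, or 1.38-fold higher (log2 fold change 0.46 with SE 0.16, adjusted p = 0.0295). Neither gene overlapped. The call for Aldoa was lost without 2H-11 replicate 1 (adjusted p = 0.103) or 2 (0.0752), without SVEC4-10 replicate 1 (0.15) or 3 (0.112), and without the filter on low counts (0.0892). Aldoc stayed a small share of the pair, at 2.24% ± 0.536 in 2H-11 and 0.673% ± 0.326 in SVEC4-10.

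Pkm encodes pyruvate kinase of muscle and of proliferating cells, whose splice forms the table does not separate (ENSMUSG00000032294, chromosome 9, 59656368 to 59679375). It had the most reads of all members in each of the 6 libraries, at 4221, 4724 and 4576 CPM in 2H-11 and at 2045, 1934 and 2245 CPM in SVEC4-10. It was 2.04-fold higher without overlap (log2 fold change 1.03 with SE 0.15, adjusted p = 2.15e-05). Tpi1, triosephosphate isomerase, was the lower member of this stage, at 1249, 1105 and 1037 CPM against 1570, 1574 and 1425 CPM. The difference was 1.44-fold (log2 fold change -0.53 with SE 0.15, adjusted p = 0.00921), and the adjusted p was 0.0615 without 2H-11 replicate 2. Per kilobase of transcript, Pkm stood at 1853 CPM in 2H-11 and 853 in SVEC4-10 and Tpi1 at 704 and 948. This scaling is an alternative only, since each direct RNA read stands for 1 molecule. Pgk1, which makes the first ATP of the pathway, was at 770 ± 12.9 and 668 ± 192 CPM, and Pgam1, the mutase, at 250.5 ± 14.1 and 236 ± 26.7 CPM. Both overlapped and did not pass (adjusted p = 0.716 and 0.976), and the log2 fold change of Pgam1 was -0.01, turning to 0.09 when libraries were scaled by total count alone and to 0.10 in a fit on Ensembl genes alone.

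Enolase was read from more than the listed pair. Eno1, the ubiquitous form (ENSMUSG00000063524, chromosome 4, 150236721 to 150248879), was at 2964, 2388 and 2294 CPM in 2H-11 and at 1078, 1251 and 1143 CPM in SVEC4-10. It was 2.05-fold higher (log2 fold change 1.04 with SE 0.16, adjusted p = 4.24e-05). Eno1b, a near-identical copy elsewhere in the genome whose annotated transcript is 99.5% identical over 81.5% of that of Eno1, drew 21385 reads beside the 67452 of Eno1. It was at 899 ± 84.9 and 324 ± 42.3 CPM, 2.59-fold higher (adjusted p = 2.87e-06). Of the reads on the 2 identifiers Eno1b held 24.9%, 27.4% and 26.2% in 2H-11 and 21.7%, 23.0% and 20.8% in SVEC4-10, with no overlap. Such reads are uncertain as to origin. With the reads of Eno1b added to Eno1, an alternative chosen after seeing the data, the log2 fold change of Eno1 was 1.12. Eno2, the neuronal form, was at 16.9, 14.1 and 13.9 CPM against 13.6, 6.89 and 9.58 CPM and did not pass (log2 fold change 0.50, 95% interval -0.06 to 1.05, adjusted p = 0.156). Eno3, the muscle form and no member of the set, was read more than Eno2, at 203, 194 and 199 CPM against 44.6, 49.3 and 44.4 CPM. It was 4.04-fold higher in 2H-11 without overlap (log2 fold change 2.01 with SE 0.18, adjusted p = 4.94e-08). The share of Eno2 in the reads of Eno1 and Eno2 was 0.586% ± 0.0173 and 0.874% ± 0.349.

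Gapdh, the enzyme that makes the NADH of glycolysis and a common reference gene, was at 86.7, 112 and 115 CPM in 2H-11 and at 87.9, 122 and 110 CPM in SVEC4-10. The lines overlapped, and the log2 fold change was -0.13 (95% interval -0.55 to 0.29, adjusted p = 0.652). Pgk1, the next step, stood at 770 and 668 CPM. Per kilobase, an alternative since each read stands for 1 molecule, Gapdh was at 73.6 and 75.2 CPM and Pgk1 at 422 and 366. In the GENCODE M21 annotation 150 other genes, 146 of them pseudogenes, matched the longest coding Gapdh transcript at 90% identity or more over 50% or more of its length. Of these, 2 were in the deposited table, with 25 reads beside the 4266 of Gapdh. Where reads with several equal placements went is not given in the sources used here, so the part of these copies in the level of Gapdh was not tested, and the absolute level of Gapdh is uncertain. The same search found 9 copies for Ldha, 5 for Pkm and 4 for Aldoa, and of these 1 was in the table, with 4 reads. In all, 11 members had such a copy. Among them were Pgk1, with 2 pseudogenes at 100% identity that were not in the table, and Eno1, with 5 pseudogenes beside Eno1b.

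**Figure D3:**
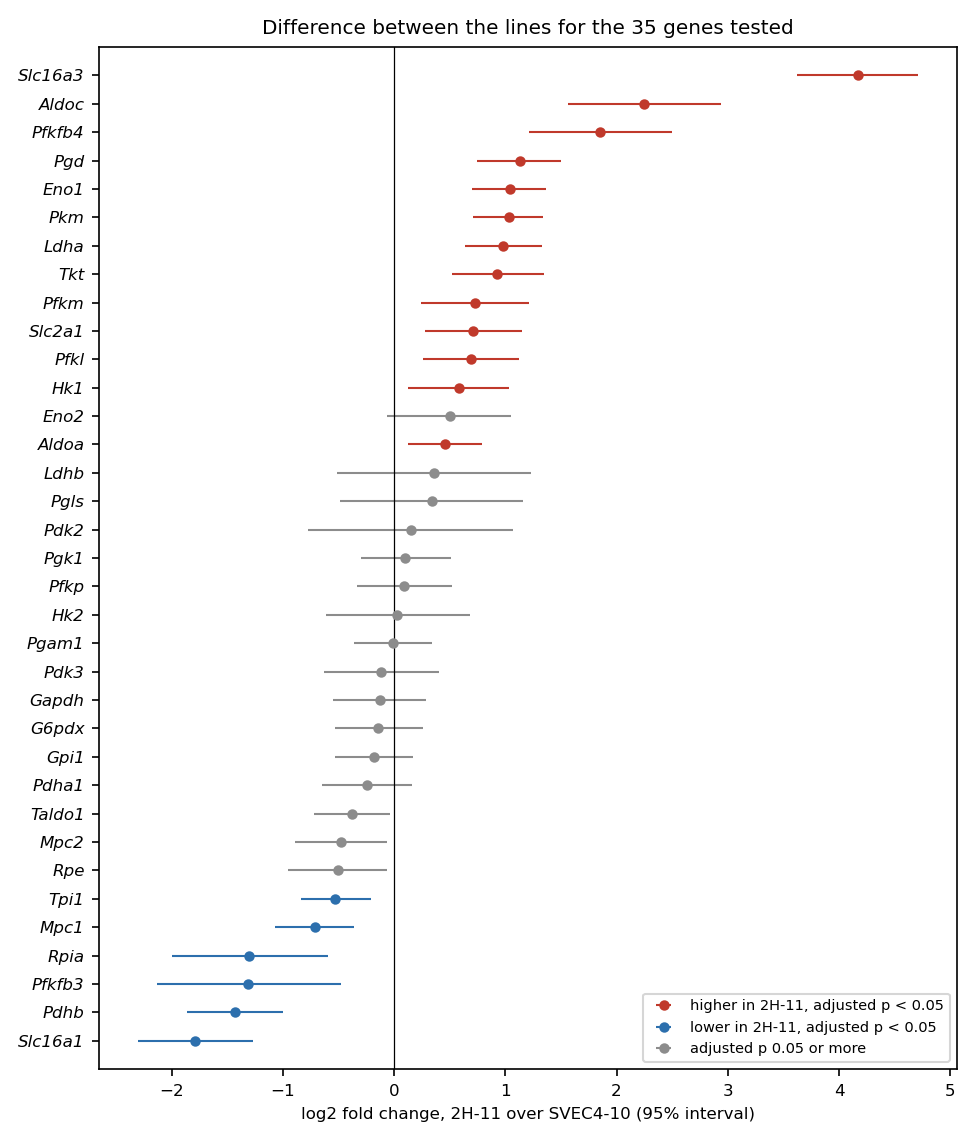
log2 fold change of 2H-11 over SVEC4-10 for the 35 members tested, with 95% intervals from edgeR, in red for the 13 higher and in blue for the 6 lower members past an adjusted p of 0.05 and in grey for the other 16. Slc16a3 stands apart at 4.17 and Slc16a1 lies at the other end at -1.79.

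In the oxidative pentose arm 1 of 3 enzymes passed, the last of the arm. That count is near the share over all genes tested, of which 36.2% were called. Pgd, 6-phosphogluconate dehydrogenase (ENSMUSG00000028961, chromosome 4, 149149991 to 149166771), was at 337, 268 and 239 CPM in 2H-11 and at 143, 99.2 and 121 CPM in SVEC4-10. It was 2.18-fold higher without overlap (log2 fold change 1.13 with SE 0.18, adjusted p = 5.84e-05). G6pdx, the NADPH-making entry enzyme, was at 56.9, 56.3 and 47.7 CPM against 58.2, 58.7 and 48.9 CPM. It overlapped and did not pass (log2 fold change -0.14, 95% interval -0.53 to 0.26, adjusted p = 0.618), and it shares 418 exon bases with Ikbkg on the other strand. Pgls, the lactonase between them, was at 7.26, 3.41 and 10.5 CPM against 3.04, 5.79 and 6.61 CPM (log2 fold change 0.34, 95% interval -0.49 to 1.16, adjusted p = 0.547). Pgls shares 776 exon bases with Fam129c on the same strand, which had 18 reads in all.

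The non-oxidative arm was split between its enzymes. Tkt, transketolase (ENSMUSG00000021957, chromosome 14, 30548359 to 30574720), was at 263, 225 and 190 CPM in 2H-11 and at 135, 75.8 and 123 CPM in SVEC4-10, 1.91-fold higher (log2 fold change 0.93 with SE 0.20, adjusted p = 0.000956). Rpia, which makes ribose 5-phosphate, was at 2.61, 4.14 and 2.92 CPM against 6.54, 6.34 and 8.63 CPM. It was 2.46-fold lower (log2 fold change -1.30 with SE 0.34, adjusted p = 0.00521) from 48 and 196 reads. Neither gene overlapped. Taldo1, transaldolase, was at 315, 283 and 263 CPM against 334, 384 and 330 CPM. Its libraries did not overlap, but it did not pass (log2 fold change -0.38, 95% interval -0.72 to -0.04, adjusted p = 0.0726), and it did without SVEC4-10 replicate 1 (0.0332). Rpe, the epimerase, was at 45.8, 45.6 and 32.6 CPM against 64.0, 58.2 and 42.9 CPM (log2 fold change -0.50, 95% interval -0.95 to -0.06, adjusted p = 0.0717), and it passed without SVEC4-10 replicate 3 (0.0246).

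Of the 4 genes of pyruvate entry 2 were lower in 2H-11, none was higher and 2 did not pass. The shares over all genes tested were 16.2% lower and 20.1% higher. Pdhb, the E1 beta subunit of pyruvate dehydrogenase (ENSMUSG00000021748, chromosome 14, 8165996 to 8173025), was at 107, 92.3 and 96.5 CPM in 2H-11 and at 263, 307 and 175 CPM in SVEC4-10. It was 2.69-fold lower (log2 fold change -1.43 with SE 0.20, adjusted p = 1.93e-05). Pdha1, the E1 alpha subunit that pairs with it, was at 239, 202 and 149 CPM against 193, 256 and 200 CPM, overlapped and did not pass (log2 fold change -0.24, 95% interval -0.65 to 0.16, adjusted p = 0.355). Mpc1, 1 of the 2 subunits of the mitochondrial pyruvate carrier (ENSMUSG00000023861, chromosome 17, 8282904 to 8297661), was at 174, 174 and 160 CPM against 273, 286 and 221 CPM. It was 1.64-fold lower without overlap (log2 fold change -0.71 with SE 0.17, adjusted p = 0.00246). Its partner Mpc2 was at 43.5, 47.3 and 61.1 CPM against 67.1, 68.1 and 63.7 CPM. Its libraries did not overlap, and it did not pass (log2 fold change -0.48, 95% interval -0.89 to -0.06, adjusted p = 0.0705); without 2H-11 replicate 3 the adjusted p was 0.0144. With no filter on low counts Taldo1 (adjusted p = 0.045), Rpe (0.0399) and Mpc2 (0.0407) all passed.

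The pyruvate dehydrogenase kinases showed no call. Pdk3 made up most of their reads, 81.4% ± 3.40 in 2H-11 and 80.3% ± 3.49 in SVEC4-10. It was at 20.3, 16.8 and 27.5 CPM against 28.0, 20.4 and 18.6 CPM (log2 fold change -0.12, 95% interval -0.63 to 0.40, adjusted p = 0.754). Pdk2 was at 3.72, 3.41 and 2.75 CPM against 5.14, 2.48 and 1.55 CPM (log2 fold change 0.15, 95% interval -0.77 to 1.07, adjusted p = 0.826). Pdk1, a gene known to respond to hypoxia, had 23 and 55 reads and was not tested. Its level was 1.12, 1.22 and 2.06 CPM in 2H-11 and 2.80, 3.03 and 1.90 CPM in SVEC4-10, with overlap. Pdk1 took 5.50% ± 0.982 and 9.38% ± 2.06 of the reads of the 3 kinases, and Pdk2 13.1% ± 3.99 and 10.3% ± 3.68.

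Exons of other members also lie across from counted genes on the other strand: those of Pdha1 share 603 bases with Map3k15 (10 reads), those of Rpe 558 with Kansl1l (41 reads), those of Gapdh 68 with Iffo1 (600 reads), and those of Tpi1 34 with Spsb2 (393 reads). The part of such shared bases in the values of these genes was not tested.

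Added up by step, aldolase to pyruvate kinase stood at 9911 ± 274 CPM in 2H-11 and at 6166 ± 235 CPM in SVEC4-10, a ratio of 1.61. Most of these reads are those of Pkm and Eno1. Hexokinase to phosphofructokinase overlapped, at 511 ± 78.9 and 469 ± 82.5 CPM (p = 0.6, exact permutation test). Lactate dehydrogenase was at 1589 ± 110 and 749 ± 112 CPM, and the oxidative pentose arm at 342 ± 53.8 and 182 ± 20.9 CPM, both without overlap. In the oxidative arm Pgd carried the difference, at 281 against 121 CPM, while G6pdx (53.6 and 55.3 CPM) and Pgls overlapped. The non-oxidative arm overlapped, at 558 ± 69.1 and 523 ± 17.5 CPM (p = 0.5, exact permutation test), with Tkt and Taldo1 on opposite sides. Pyruvate entry was at 515 ± 48.6 and 791 ± 128 CPM, without overlap. The kinases were at 26.3 ± 5.51 and 28.0 ± 7.21 CPM (p = 0.6, exact permutation test).

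**Figure D4:**
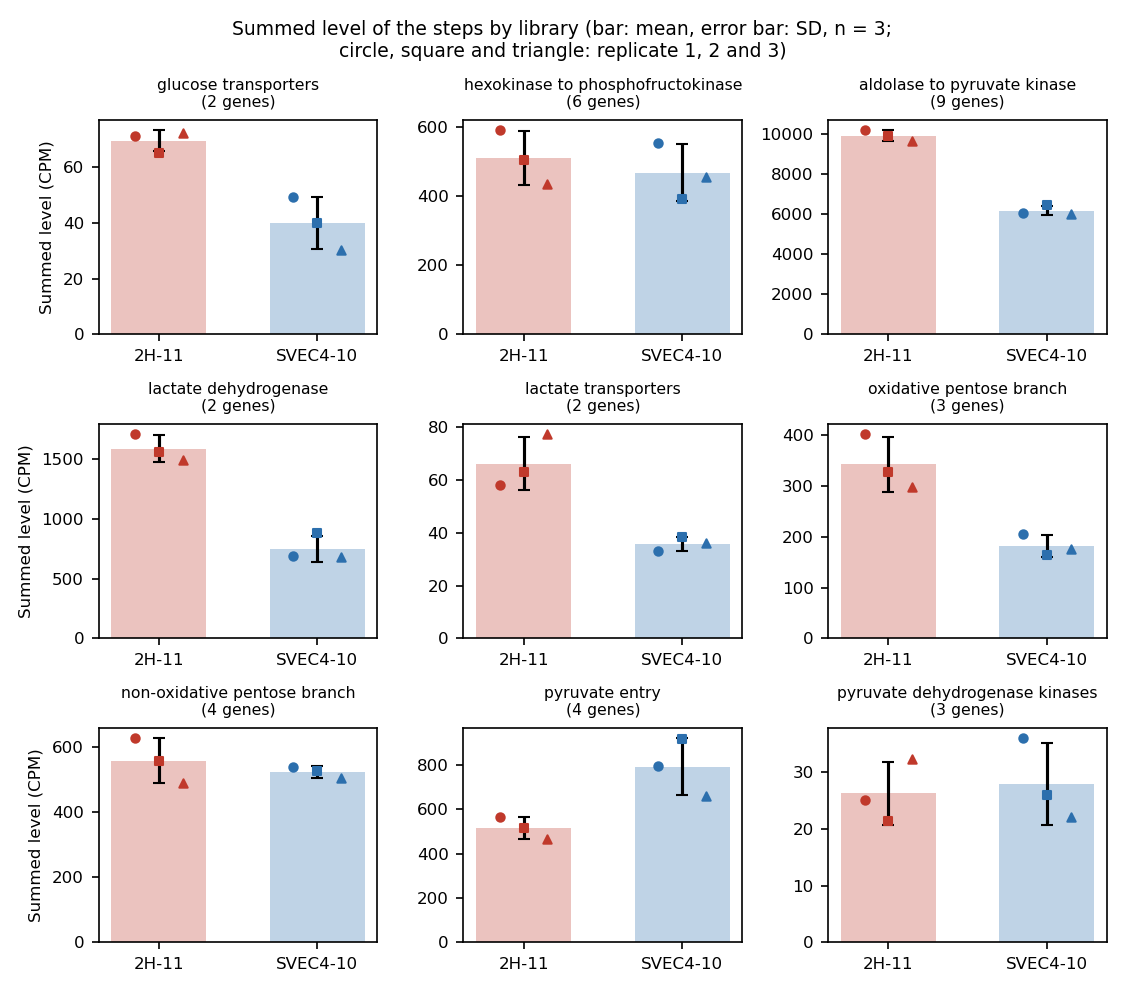
CPM summed over the genes of each step, with bars for the mean, error bars for the SD over 3 libraries and symbols for the single libraries. Of the 9 panels, pyruvate entry alone is lower in 2H-11 without overlap (515 against 791 CPM), and aldolase to pyruvate kinase, lactate dehydrogenase, both transporter pairs and the oxidative pentose arm are higher without overlap. Pgd carries the difference of the oxidative arm.

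Further genes around the pathway were followed through lists, of which the members with the smallest p are named. Beside each list count below stands the share over all genes tested, 36.2% called, 20.1% as higher and 16.2% as lower. None of these lists was tested as a set. Among 31 glycolytic paralogs and side enzymes, 12 were tested, 3 were higher and 2 lower in 2H-11, and 15 were under 1 CPM in every library. They include Eno3 and Bsg, given above, and Slc2a6, a lysosomal sugar transporter, which had 100 reads in 2H-11 and 4 in SVEC4-10, all 4 in replicate 3. Its level was 6.47 ± 0.925 against 0.0794 ± 0.137 CPM (log2 fold change 5.14 with SE 0.57, adjusted p = 9.65e-07), and without SVEC4-10 replicate 3 it was at least 17.2-fold higher, taking 3 reads over the line as the limit that a count of 0 allows. Of 10 further pentose and NADPH genes, 5 were tested and 1 was higher, Nqo1, an NADPH-using quinone reductase, at 52.3 ± 5.37 against 22.2 ± 4.67 CPM, with an adjusted p of 0.000251.

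Of the hexosamine branch, which leaves glycolysis at fructose 6-phosphate and supplies sugars for glycosylation, 6 genes were tested, 2 were higher and 1 lower. Gfpt2, a form of its first enzyme, had 163, 132 and 143 reads in 2H-11 and 0, 0 and 2 reads in SVEC4-10. The ratio of summed reads, each over its line's total, was 354 (95% counting interval 97.3 to 2928; adjusted p = 2.05e-10). Without SVEC4-10 replicate 3, which held both reads, Gfpt2 was at least 75.4-fold higher. Uap1, the last enzyme of the branch, was at 74.97, 81.1 and 72.4 CPM against 21.3, 28.4 and 27.2 CPM, 2.77-fold higher (log2 fold change 1.47 with SE 0.20, adjusted p = 1.34e-05).

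Of 14 genes of gluconeogenesis and glycogen, 8 were tested, 2 were higher and 3 lower. Ugp2, which makes UDP-glucose, was at 91.2 ± 18.8 against 175 ± 36.2 CPM (log2 fold change -1.04, adjusted p = 0.000481). Of 6 tested genes around pyruvate dehydrogenase, with pyruvate carboxylase Pcx among them, 1 was lower. It was Dld, the E3 subunit, at 91.4 ± 15.4 against 125 ± 27.6 CPM, with an adjusted p of 0.0391. This call was lost without 2H-11 replicate 2 (0.0963) or 3 (0.114) or SVEC4-10 replicate 2 (0.17). Pdk4 had 5 reads in 2H-11 and none in SVEC4-10 and was not tested.

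The shuttles that carry NADH electrons into mitochondria had 0 of 9 tested genes higher and 3 lower. Over all genes tested 36.2% were called, so the number of calls is near that share. Got2, the mitochondrial aspartate aminotransferase, was at 194 ± 38.2 against 277 ± 35 CPM with an adjusted p of 0.0095, and its cytosolic counterpart Got1 was at 101 ± 13.1 against 136 ± 1.90 CPM with an adjusted p of 0.0218, which was 0.079 and 0.0642 when 2H-11 replicates 2 and 3 were left out in turn. Of 6 muscle and neural forms listed as markers, 4 were tested, and all 4 are given above. The 3 higher ones, the members Pfkm and Aldoc and the paralog Eno3, repeat calls already counted, and the member Eno2 did not pass. Of 10 regulators of glycolysis tested, 1 was called. Myc was lower in 2H-11, at 49.4 ± 9.85 against 67.4 ± 3.98 CPM with an adjusted p of 0.0356, a call lost without 2H-11 replicate 2 (0.144) or 3 (0.0951) and without SVEC4-10 replicate 2 (0.0696) or 3 (0.0734).

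The authors' deposited table, which comes from DESeq2, gave an adjusted p under 0.05 for 18 of the members. In the authors' deposited table Hk1 (0.0717) and Aldoa (0.0652) missed this threshold and Mpc2 (0.0417) passed it. For Slc16a3 the authors' deposited table gave a log2 fold change of 4.03 and for Slc16a1 one of -1.80.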

How the data were processed

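Libraries were made from total RNA with the nanopore direct RNA kit SQK-RNA002, per the labels' protocols. Builds mm10 and GRCm38 are named, per the submitters' processing notes. For the aligner, the counting tool, its annotation, its use of strand and its filters, nothing was found: each is not given in the sources used here. One table was deposited, and it gives raw read counts per gene, CPM (equal to each count over its library total) and, per the file headers, log2 fold changes and adjusted p-values from DESeq2. The DESeq2 values were copied only where named. The table has 13 broken lines without a gene name, which were dropped.

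Counts were fitted with edgeR 4.0.16 in R 4.3.3 over the whole table: filterByExpr (minimum count 10, minimum total 15), TMM scaling, line as the only term, Benjamini-Hochberg threshold 0.05; the biological coefficient of variation was 20.2%. Intervals (95%) of fold changes come from this fit, and intervals of read ratios cover counting error only. The fit was tested on simulated data. Shares and sums were compared with exact two-sided permutation tests over libraries. Loci, transcript lengths and copies (BLAST 2.17.0) came from GENCODE M21 on GRCm38. Of 22036 Ensembl identifiers 22022 were found there. Alternatives used DESeq2 1.42.0, limma-voom (limma 3.58.1), other scalings and filters, thinning and left-out libraries; figures used matplotlib 3.10.9 and Python 3.11.15. The named genes are all 37 members and, in each further list, the 2 called genes with the smallest p, or otherwise the most abundant. One gene that this rule names is not reported here. The members and lists were chosen with earlier results of these data known.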

Additional observations from a re-analysis of the deposited data

How the results depend on the processing

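Among the 35 members tested, the calls for Slc16a3, Slc16a1, Pdhb, Pkm, Aldoc, Eno1, Pgd, Pfkfb4, Ldha, Tkt, Mpc1 and Rpia held under other tools, scalings, filters, thinning and each left-out library. Tested against a 1.5-fold change, 7 members were higher and 3 lower, and over all genes 1722 were higher and 1075 lower. Of the 12 named, Tkt (adjusted p = 0.0563) and Mpc1 (0.27) missed that stricter test. A fit on Ensembl genes alone gave 1657 higher genes over the table. Leaving out 1 library gave 8 to 13 higher members, the fewest without SVEC4-10 replicate 3, and 5 to 7 lower ones. Same-numbered libraries did not visibly deviate together (correlations across genes of -0.013, 0.052 and -0.003). Different-numbered ones gave -0.079 to 0.067. With 3 libraries per line this cannot settle whether libraries shared a day, which the labels do not give. With a replicate block 12 members were higher and 6 lower; Hk1 was lost (adjusted p = 0.0607), and no other member changed its call. Dld and Myc among the other genes were lost too (0.0596 and 0.0622). By total count alone Dld (0.0865), Got1 (0.0569) and Myc (0.0887) were lost, on Ensembl genes Dld (0.0721) and Myc (0.0617), and with limma-voom Dld (0.0538).

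Signs turned only for members that did not pass. Leaving out 1 library gave log2 fold changes of -0.20 to 0.30 for Hk2, -0.04 to 0.19 for Pfkp, -0.13 to 0.33 for Pgk1, -0.13 to 0.07 for Pgam1, -0.03 to 0.55 for Ldhb, -0.35 to 0.64 for Pdk2, -0.36 to 0.02 for Pdk3 and -0.10 to 0.64 for Pgls. It was -0.04 for Hk2 with limma-voom and without the filter. For Pgam1 it was 0.01 with limma-voom and with a filter of 20 counts in 3 libraries, 0.09 by total count and 0.10 on Ensembl genes. Thinning gave -0.17 for Pdk2. The difference in the Pdk3 share (1.10 points) ran from -0.748 to 3.10 over left-out libraries and was -0.756 per transcript length. That in the summed kinases ran from -4.70 to 2.31. With TMM scaling that of the non-oxidative pentose arm was -1.58 CPM. The cause of these turns was not tested. The trend with transcript length, an alternative chosen after seeing the data, was -0.10 to 0.08 in log2 at the members. Removing that trend subtracted these values from their log2 fold changes. Slc2a3 and Pdk1, with 39 and 78 reads over the 6 libraries, did not pass in the fit without the filter (adjusted p = 0.287 and 0.203).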
